A study of Mus musculus with 8 samples.

Results

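Old haematopoietic stem cells (HSCs) with low autophagy were compared with young HSCs by bulk RNA sequencing of mouse bone marrow. The comparison took 5 of the 8 libraries of the study: 3 of old HSCs sorted for a high signal of a GFP-LC3 reporter (ATlo, autophagy-low) and 2 of young HSCs that were not fractionated by GFP. Of the 19909 genes in the table, 13611 had a base mean (the mean normalized count over all 8 libraries) of 100 or more and were tested, and 6298 lay under that minimum. All groups had the genotype Gfplc3/Gfplc3 and were isolated at steady state. Young mice were 8 to 12 weeks of age (2 mice) and old mice over 24 months (3 mice). The 33% of old HSCs with the highest GFP formed ATlo. The lowest 33% from the same old mice formed AThi (autophagy-high, 3 libraries), which took no part in the test. Only old cells passed a GFP gate, so age and the gate cannot be told apart.

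HSCs renew themselves and give rise to all blood lineages. With age the pool in mice grows, its output shifts towards myeloid cells and platelets, and single cells reconstitute a recipient less well. Autophagy encloses cytoplasm in membranes that carry lipid-bound LC3 and delivers it to lysosomes, where LC3 bound to the inner membrane is degraded too. GFP fused to LC3 is therefore lost as autophagy proceeds, and retained GFP is read as low flux.

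RNA came from about 10000 cells a sample. Young libraries held 45590508 and 44021141 reads in genes of the table, and ATlo libraries 57714738, 54512285 and 61341946. Values are given in the order of the libraries tagged D11 and D12 for young and O10, O11 and O12 for ATlo. The HSC genes Procr, Kit, Ly6a, Mecom and Slamf1 were present in every library, with Procr at 2321 and 2844 in young and 2909, 2120.5 and 2000.3 in ATlo. Sex-linked transcripts set the young library D11 apart, with the most Xist, the RNA of the inactive X chromosome, and almost no Y-linked Ddx3y. Xist was at 97743 and 3869 in young and 171, 32.5 and 2747 in ATlo. Ddx3y was at 4.16 and 1918 against 2654, 2404 and 2587. D12 and O12 held Ddx3y together with more Xist than O10 and O11, and the reason was not tested. B cell transcripts were high in the libraries tagged 12. Ighm, the heavy chain of immunoglobulin M, was at 35.3 and 8395 in young and 33.0, 63.5 and 7314 in ATlo, and Ebf1, a B cell transcription factor, at 36.4 and 550.2 against 0, 0.794 and 627. Each group held 1 library with B cell transcripts and 1 or more without, which is a larger share of the young than of the ATlo libraries. The 5 B cell markers tested had 0 calls by limma, edgeR or DESeq2 and 0 at an unadjusted p of 0.05, with summed levels of 742 and 11065 in young and 664, 745 and 10438 in ATlo. Their median log2 fold change was -1.13, with 0 estimates above 0 and 5 below. With libraries of a group this far apart, the lack of calls does not show that the groups were alike. There were 2 sort days, and the sources used here do not tie libraries to them, so the part of sort day in the results was not tested.

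Genes that were higher in ATlo outnumbered those that were lower by limma, and less so by DESeq2. The base mean minimum is taken over more old than young libraries, so genes expressed mainly in old cells passed it more easily. The excess of rises is therefore a description. Out of 13611 genes, 190 passed an adjusted p of 0.05 by limma with Benjamini-Hochberg adjustment, 135 higher and 55 lower in ATlo. These were 1.40% of the genes tested, 0.992% in the higher and 0.404% in the lower direction. At an unadjusted p of 0.05 limma had 2001 of the 13611 in either direction, the background for unadjusted counts of lists. DESeq2 on the recovered reads of the same 5 libraries called 362 higher and 331 lower, and the authors' deposited table has 389 and 298. These are the background for the counts of lists by DESeq2 and in that table. The log2 fold change of all genes tested had a median of 0.02, with the 5th and 95th percentiles at -0.94 and 0.77. Among the calls, 110 rises and 43 falls exceeded 1 on the log2 scale, which here means log2(normalized count + 1). In all 190 the 3 ATlo libraries lay on one side of both young libraries. Of all genes tested, 17.7% lay wholly above and 14.5% wholly below the young libraries, so separation alone was common. With 3 libraries against 2, an exact two-sided rank test of a single gene cannot go below p = 0.2. All p-values here therefore lean on the spread that limma shares across genes.

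The size of the call set depended on single libraries. Without the young library D11 52 genes were higher and 7 lower, and without D12 74 and 12. Young is then 1 library, which these fits assume to vary like the ATlo libraries. Without D12 that library is D11, with almost no Ddx3y, which every ATlo library held, so sex and the groups cannot be told apart there. The same holds without both libraries tagged 12. Without O10 the counts were 47 and 27, without O11 73 and 40, and without O12 92 and 37. All 190 genes kept their direction in each of these fits, and 32 of them (27 higher, 5 lower) were called in every one. Those 32 include Clca3a1, Selp, Aldh1a1, Abca4, Plscr2, Lpl, Zg16, Muc1, Mt1, Mt2, Vwf and Cavin2 among the rises and Socs2, Plxdc2, Hif3a, Gria3 and Lhcgr as the falls. Other called genes described below that no naming rule gave were chosen after their values were seen. For genes outside the 32 the highest adjusted p over these 5 fits is given below with the libraries concerned. Without both libraries tagged 12, 64 genes were higher and 11 lower.

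**Figure D1:**
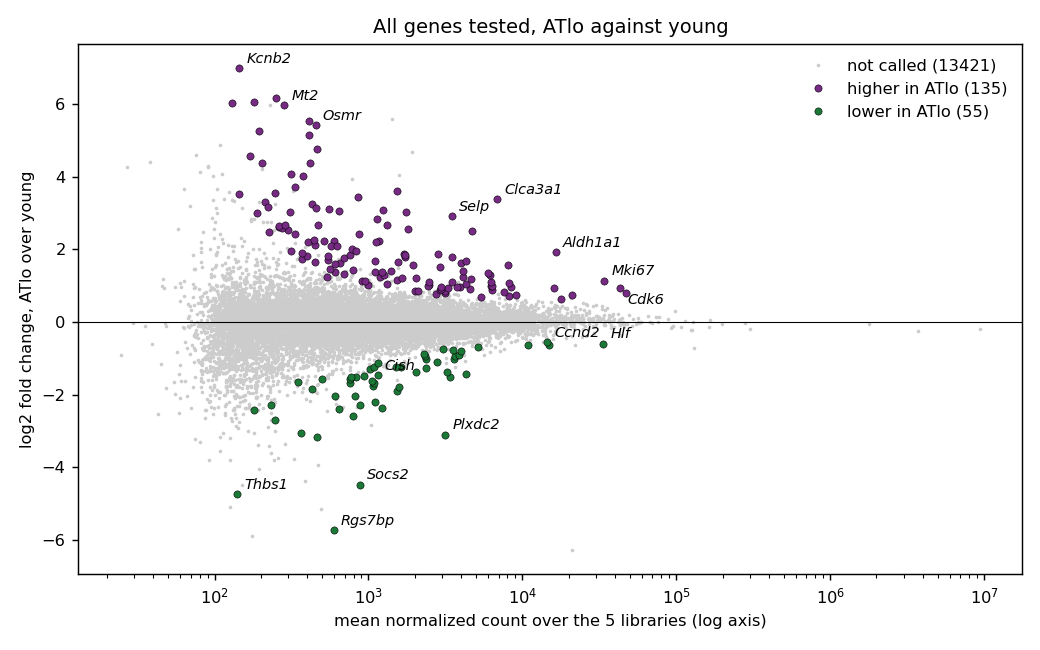
Each point is 1 of the 13611 genes tested, placed by its mean normalized count over the 5 libraries (log axis) and its log2 fold change of ATlo over young. Purple points are the 135 genes higher and green points the 55 genes lower in ATlo by limma at an adjusted p of 0.05, and grey points did not pass. The falls Socs2 and Rgs7bp stand apart from most other calls in the lower direction.

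A group of genes close to silence in young HSCs was well expressed in ATlo HSCs. Of the 135 rises, 21 had a young mean under 50 normalized counts. The base mean that a gene had to reach is taken over all 8 libraries, 6 of them of old cells, so genes this low in young were tested only because they were high in old cells. Their number is therefore a description. Kcnb2, a voltage-gated potassium channel subunit, was at 2.08 and 0 in young and 286, 123 and 312 in ATlo. That is 2 reads in both young libraries together and 920 in the ATlo libraries, and their log2 ratio, corrected for depth, is 7.85 with an exact 95% counting interval of 5.99 to 10.89. Counting intervals cover counting error only. Zg16, which encodes a secreted lectin of mucous tissues, was at 4.16 and 5.28 in young and 426, 459.7 and 349.8 in ATlo (log2 fold change 6.17, SE 0.63, limma adjusted p 0.0027). Its 9 young and 1571 ATlo reads gave a log2 ratio of 6.45 with a counting interval of 5.52 to 7.58. Muc1, a membrane mucin, was at 32.2 and 9.50 in young and 786, 709.7 and 518 in ATlo (log2 fold change 5.15, SE 0.56). Every ATlo library was far above both young libraries for these 3 genes.

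Receptors and adhesion molecules were among these rises. Osmr, the receptor subunit for oncostatin M, a cytokine of the interleukin 6 family (chromosome 15, 6813577 to 6874969, GRCm38), was at 6.23 and 31.7 in young and 1202, 676 and 355 in ATlo (log2 fold change 5.43, SE 0.73, limma adjusted p 0.010). ATlo libraries differed among themselves here, O10 holding the most and O12 the least. Gabra4, a subunit of the GABA-A receptor, was at 0 and 16.9 against 211, 409.6 and 258. Cdh4, a cadherin of cell contacts, was at 12.5 and 4.22 against 281, 347 and 331. Dsp, the desmosomal protein desmoplakin, had uneven young values of 91.4 and 6.34 against 699, 1029.7 and 499.9 in ATlo. Spint1, an inhibitor of membrane serine proteases, was at 14.5 and 6.34 against 264, 411 and 150.0, and Tmem215, a membrane protein, at 5.19 and 27.5 against 1129, 468 and 434. Gpx8, a peroxidase of the endoplasmic reticulum, was at 12.5 and 16.9 against 384, 338 and 259.7, and Tdrd9, a helicase of the germline piRNA pathway, at 37.4 and 25.3 against 660.0, 845 and 519. The calls of Kcnb2 and Dsp were lost without the library O10, O11 or O12 (limma adjusted p up to 0.14 and 0.11). Gabra4 was not called without the library D11, O10, O11 or O12 (limma adjusted p up to 0.14). The calls of Tmem215, Osmr, Cdh4 and Gpx8 were lost without the library O10 (limma adjusted p 0.056, 0.056, 0.056 and 0.058). Spint1 was not called without the library D11, D12, O10 or O11 (limma adjusted p up to 0.10).

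**Figure D2:**
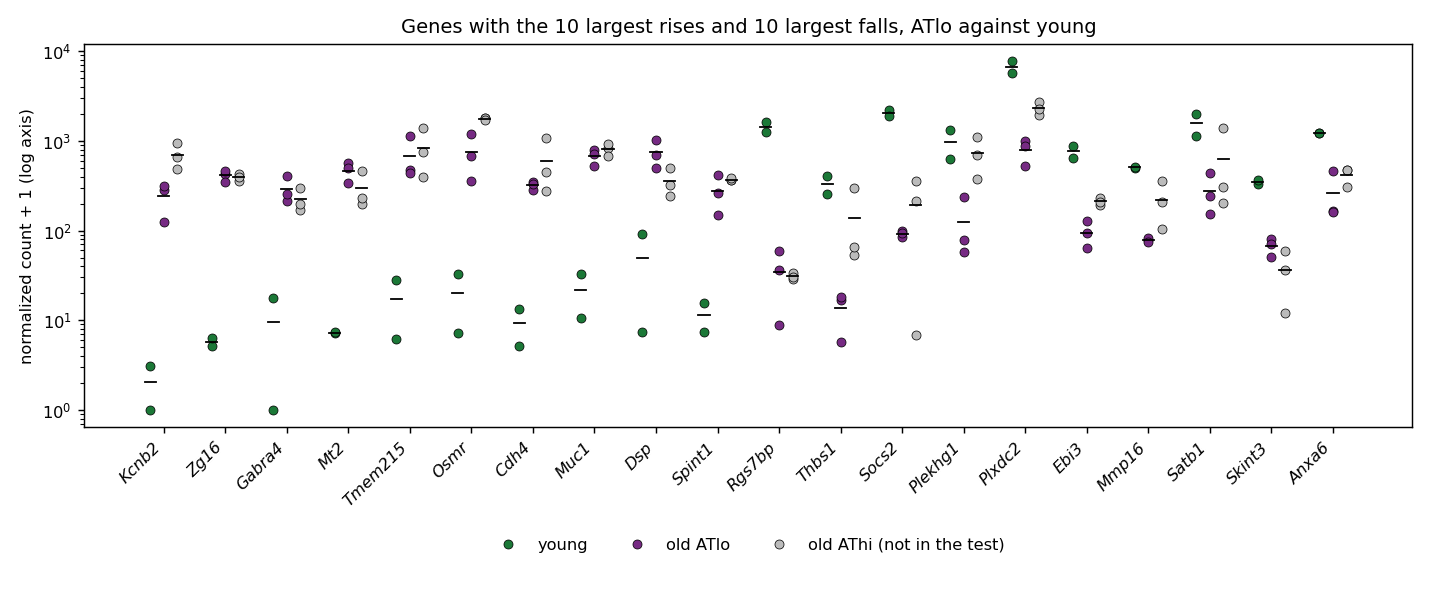
Points are the normalized counts (plus 1, log axis) of single libraries for the genes with the 10 largest rises, at the left, and the 10 largest falls, at the right, among called genes that are not predicted ones such as Gm45774, with a bar at each group's mean. Purple ATlo libraries lie above both green young libraries for the rises, from Kcnb2 to Spint1, and below them for the falls, from Rgs7bp to Anxa6. Grey AThi libraries are shown for their values and took no part in the test.

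Mt1 and Mt2 encode metallothioneins, small proteins that bind zinc, copper and cadmium and are induced through the zinc-sensing transcription factor MTF1. Mt2 was at 6.23 and 6.34 normalized counts in young and 569, 493 and 339 in ATlo (log2 fold change 5.97, SE 0.59, limma adjusted p 0.0024). Mt1 was at 85.2 and 173 in young and 1592, 1251 and 1193 in ATlo (log2 fold change 3.45, SE 0.34, limma adjusted p 0.0023). Both calls held without each library in turn. Mt2 overlaps the predicted gene Gm45774 on the other strand, which was also called (log2 fold change 6.02, limma adjusted p 0.020) and is left out of the naming rule as a predicted gene. Without a stated strand setting of the counting, reads of the pair cannot be told apart. Mtf1 itself had a log2 fold change of 0.22 (limma adjusted p 0.65) and the zinc exporter gene Slc30a1, another MTF1 target, of -0.03 (0.98). Of 31 metallothionein and antioxidant genes tested, Mt1 and Mt2 were the only calls by limma (6.45% of the list beside 1.40% of all genes), and the list's median log2 fold change was 0.20. The list was chosen with earlier results of these data known. Mt2 reached the base mean minimum only through old libraries, so this share is a description. The lowest estimate was that of the haem oxygenase gene Hmox1 (-1.02, limma adjusted p 0.63). Sesn3, a sestrin, had -0.80 (0.057), and the authors' deposited table has 1 gene of the list lower.

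The promoters of the 2 metallothionein genes are shown because both rose from low levels. Sequences are from RefSeq (GRCm38.p6) and run from 250 bases before to 50 bases after the transcription start, both on the + strand, Mt1 at chr8:94178839-94179138 and Mt2 at chr8:94172368-94172667. Capitals mark matches, on either strand, to the core of the metal response element, spelled TGCACNC or TGCGCNC. Mt1 has 3 matches and Mt2 has 4. Of 32851 promoters of this length in the table, 25.7% have at least 1 match, 1.97% at least 3 and 0.517% at least 4. A match is a description of the letters and not of binding.
Mt1: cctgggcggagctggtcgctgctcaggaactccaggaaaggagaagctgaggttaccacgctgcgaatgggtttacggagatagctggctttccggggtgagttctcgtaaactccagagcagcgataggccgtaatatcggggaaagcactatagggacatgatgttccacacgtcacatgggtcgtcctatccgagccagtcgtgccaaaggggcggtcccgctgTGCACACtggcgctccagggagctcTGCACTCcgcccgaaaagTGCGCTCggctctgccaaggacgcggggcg
Mt2: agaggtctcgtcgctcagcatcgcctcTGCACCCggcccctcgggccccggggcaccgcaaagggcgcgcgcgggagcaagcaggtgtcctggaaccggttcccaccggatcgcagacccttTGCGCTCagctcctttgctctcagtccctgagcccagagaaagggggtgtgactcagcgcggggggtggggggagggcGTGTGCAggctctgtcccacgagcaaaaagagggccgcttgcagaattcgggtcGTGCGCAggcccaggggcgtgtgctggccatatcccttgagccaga

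The old HSC signature gathers genes known to be raised with age in these cells, and was drawn up with earlier results of these data known. Most of its members were higher in estimate in ATlo. Of 58 listed genes 53 were tested, and 31 were higher and 0 lower by limma at an adjusted p of 0.05 (42 and 0 at an unadjusted p of 0.05), beside 0.992% and 0.404% of all genes. The list's median log2 fold change was 1.26, beside 0.02 over all genes tested, and 48 of the 53 had an estimate above 0. The list holds genes already known to be raised in these libraries, such as Kcnb2, Zg16 and Osmr, so its count is not independent evidence of its direction. Members such as Kcnb2 and Zg16 also reached the base mean minimum only through old libraries. The counts and median beside those of all genes are therefore a description. So are the counts and shares of the other lists, which were also chosen with earlier results of these data known. With edgeR's quasi-likelihood test on the recovered reads 27 were higher, and without the libraries tagged 12 24 were. Without O10 the count was 16, without D11 19, and without the other libraries 24 to 26.

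Clca3a1, a regulator of chloride conductance (chromosome 3, 144729677 to 144760977), had the smallest adjusted p of all genes. It was at 1047 and 982 normalized counts in young and 8604, 12166 and 11432 in ATlo (log2 fold change 3.39, SE 0.17, limma adjusted p 9.4e-05). Its neighbour Clca3a2 was at 41.6 and 29.6 against 254, 309.6 and 308. Reads that fit both of these related genes, or the overlapping predicted gene Gm34866, could be split by the counting. Aldh1a1, which makes retinoic acid from retinaldehyde and clears reactive aldehydes, was at 5489 and 6795 in young and 23382, 25857 and 20775 in ATlo (log2 fold change 1.93, SE 0.14, limma adjusted p 0.00051). The other 12 retinoid genes tested had no call, beside 1.40% called of all genes. Plscr2, of the phospholipid scramblase family, was at 156 and 228 against 1683, 3407 and 2138, and Ehd3, of endosomal recycling, at 1215 and 967 against 4629, 3861 and 3554. Enpp5, a membrane nucleotide phosphodiesterase, was at 1673 and 1995 against 6565, 6393 and 4792, and Fyb, an adaptor that links receptors to integrins, at 1882 and 2238 against 5622, 5800.2 and 5074. The calls of Clca3a1, Aldh1a1, Plscr2, Ehd3, Enpp5 and Fyb held without each library in turn. The call of Clca3a2 was lost without any 1 of the 5 libraries (limma adjusted p up to 0.082).

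Clu, the secreted chaperone clusterin, was at 152 and 661 in young and 2142, 3329.6 and 2450.4 in ATlo (log2 fold change 3.03, SE 0.50, limma adjusted p 0.024). Nupr1, a small stress-induced chromatin protein, was at 233 and 534 against 1502, 1496 and 2094, and Rorb, a nuclear receptor, at 129 and 407 against 1641, 2393 and 1104. D12 was the higher young library for all of these. Gpr183, a receptor for oxysterols that guides immune cells, was at 114 and 209 against 896, 789 and 565. Signature members that did not pass include Cd38 (0.64, limma adjusted p 0.23), Ghr, the growth hormone receptor (0.18, 0.70), Slamf1 (0.75, 0.072), Meis2 (-0.16, 0.96) and Egr1 (-0.19, 0.80). Clu was not called without the library O10 or O12 (limma adjusted p up to 0.063). The calls of Nupr1 and Rorb were lost without the library D11 or O10 (limma adjusted p up to 0.083 and 0.14). Gpr183 was not called without the library D11, O10 or O11 (limma adjusted p up to 0.14).

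Platelet and megakaryocyte genes, which a part of the HSC pool transcribes before any commitment, rose in part. Of 20 tested, limma called 7 higher and 0 lower, beside 0.992% and 0.404% of all genes (11 and 1 at an unadjusted p of 0.05, and 5 and 0 by edgeR), with a median log2 fold change of 0.92. Selp, the adhesion receptor P-selectin stored in platelet granules (chromosome 1, 164115264 to 164150026), was at 827 and 602 in young and 5461, 5397 and 5069 in ATlo (log2 fold change 2.91, SE 0.18, limma adjusted p 0.00025). It overlaps the predicted gene Gm16548 on the other strand, also called. Vwf, von Willebrand factor, was at 1334 and 1451 against 4518, 5930.4 and 4138. Cavin2, a coat protein of caveolae found in platelets, was at 813 and 1846 against 6385, 7399.9 and 7073. The integrin subunits of the fibrinogen receptor were both higher, Itga2b at 460.2 and 883 against 2125, 2735 and 2249.8 and Itgb3 at 2921 and 4541 against 9103, 7023 and 7607. Gp1ba, of the receptor for von Willebrand factor, was at 520.5 and 539 against 1221, 1200.4 and 1064, and Plek, the platelet kinase substrate pleckstrin, at 2483 and 5309.6 against 12450.2, 11418 and 8672. Tbxa2r, the thromboxane receptor and no member of the list, was at 162 and 133 against 664, 556 and 723. The granule chemokine Pf4 (1.28, limma adjusted p 0.12), the von Willebrand receptor subunit Gp9 (0.96, 0.13) and the lineage factor Gata1 (0.15, 0.96) did not pass. Selp, Vwf, Cavin2, Itga2b and Itgb3 are in the signature list as well. This list too was chosen with earlier results of these data known, so its counts are a description. Without D11 3 of the 20 were higher and without O10 4. The call of Itga2b was lost without the library D11 (limma adjusted p 0.070). Itgb3 was not called without the library D11, O10 or O12 (limma adjusted p up to 0.24). The call of Gp1ba was lost without any 1 of the 5 libraries (limma adjusted p up to 0.21). Plek was not called without the library D11, O10 or O11 (limma adjusted p up to 0.16). The call of Tbxa2r was lost without the library D11, D12 or O10 (limma adjusted p up to 0.067).

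Adhesion and surface genes had calls in both directions. The list was chosen with earlier results of these data known, so its counts are a description. Its member Cdh4 reached the base mean minimum only through old libraries. Of 38 tested, limma called 8 higher and 1 lower, beside 0.992% and 0.404% of all genes, with a median of 0.16: Itga2b, Itgb3, Itga6, Selp, Jam2, Alcam, Cdh4 and Neo1 rose and Plxdc2 fell. At an unadjusted p of 0.05, 12 were higher and 8 lower. DESeq2 on the 5 libraries called 9 and 4, beside 362 and 331 of all 13611 genes. Of the members, 13 lay wholly above and 10 wholly below the young libraries, beside 17.7% and 14.5% of all genes. Itga6, the laminin receptor subunit, was at 9872 and 10909.6 in young and 21322, 21414 and 16839.6 in ATlo, and Jam2, a junctional adhesion molecule, at 1329 and 1746 against 3298, 2889.8 and 3021. Ncam1, the neural cell adhesion molecule and no member of the list, was at 195 and 289 against 1379.7, 1192 and 1277 (log2 fold change 2.42, SE 0.25, limma adjusted p 0.0027). The homing receptor Cxcr4 had a log2 fold change of -0.98 (limma adjusted p 0.17), the integrin subunit Itga4 of -0.47 (0.11) and the egress receptor S1pr1 of -0.52 (0.43). Without O10 2 of the 38 were higher, without D11 3, without D12 4 and without both libraries tagged 12 4. Itga6 was not called without the library D11, D12 or O10 (limma adjusted p up to 0.15). The call of Jam2 was lost without any 1 of the 5 libraries (limma adjusted p up to 0.24). Alcam was not called without the library D12 or O10 (limma adjusted p up to 0.12). The call of Neo1 was lost without the library D11, D12, O10 or O11 (limma adjusted p up to 0.17).

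Receptors of the TGF-beta and BMP pathway, whose ligands restrain HSC division, rose in 3 of 25 genes tested, and 1 gene of the list fell, so that 16% of it was called beside 1.40% of all genes. Bmpr1a, a type I BMP receptor, was at 270.1 and 733 in young and 3147, 2436 and 2402 in ATlo (log2 fold change 2.57, SE 0.36, limma adjusted p 0.013). Tgfbr3, the co-receptor betaglycan, was at 4184 and 3732 against 8222, 9273 and 6222, and Neo1, a receptor for netrins and repulsive guidance molecules that modulates BMP signals, at 831 and 568 against 2266, 1849.8 and 1478. The signalling receptors Tgfbr1 and Tgfbr2 (0.06 and -0.46, limma adjusted p 0.92 and 0.28) and the signal transducers Smad1 to Smad5 and Smad7 had no call. Thbs1, thrombospondin 1, which can activate latent TGF-beta, fell from 409 and 252 to 4.71, 15.9 and 17.1 (log2 fold change -4.74, SE 0.94, limma adjusted p 0.046). The list's median was -0.13. Bmpr1a was not called without the library O10 (limma adjusted p 0.055). The calls of Tgfbr3 and Neo1 were lost without the library D11, D12, O10 or O11 (limma adjusted p up to 0.19 and 0.17). Thbs1 was not called without the library D11, D12, O10 or O12 (limma adjusted p up to 0.48).

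Other genes expressed in both groups rose by more than 1 on the log2 scale. Abca4, a lipid transporter of the ABC family known from photoreceptors, was at 277 and 358 in young and 2025, 2101 and 1871 in ATlo (log2 fold change 2.66, SE 0.21, limma adjusted p 0.0010). Lpl, lipoprotein lipase, was at 99.7 and 139 against 899, 1136 and 956, and Mmp14, a membrane metalloproteinase, at 324 and 382 against 1645, 1764 and 1448. S100a6, a calcium-binding protein, was at 726 and 635 against 2555, 2359 and 2361, and Vldlr, the receptor for very low density lipoprotein, at 3463 and 2773 against 8798, 7945 and 7116. Cysltr2, a leukotriene receptor, was at 1467 and 1275 against 4195, 3927 and 3644. The calls of these 6 genes held without each library in turn. Adgrg2, an adhesion G protein-coupled receptor, was at 297 and 109.8 against 896, 772 and 906. Bcl2, the inhibitor of cell death, was at 4307 and 4166 against 8192, 8612 and 6698, and the hypoxia-inducible factor gene Epas1 at 154 and 122 against 541, 599 and 432. The call of Adgrg2 was lost without the library D12, O10, O11 or O12 (limma adjusted p up to 0.10). Bcl2 was not called without the library D11, D12, O10 or O11 (limma adjusted p up to 0.15). The call of Epas1 was lost without any 1 of the 5 libraries (limma adjusted p up to 0.13).

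Socs2 had the smallest adjusted p of the falls. SOCS2 and CISH belong to the suppressors of cytokine signalling, feedback inhibitors that STAT5 induces downstream of receptors such as that for growth hormone. Socs2 (chromosome 10, 95385362 to 95417180) was at 2224 and 1899 normalized counts in young and 83.3, 98.4 and 93.3 in ATlo, a mean of 2061 ± 230.1 (SD, n = 2) against 91.7 ± 7.71 (SD, n = 3). Both groups were tight, and the log2 fold change was -4.47 (SE 0.30, limma adjusted p 0.00042); without single libraries the adjusted p reached at most 0.018. The AThi libraries of the same mice held 5.85, 214 and 359. In the authors' deposited table its adjusted p was 0.011.

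Cish was at 1852 and 1825 in young and 679.6, 885 and 494 in ATlo (log2 fold change -1.46, SE 0.26, limma adjusted p 0.032). Cish was not called without the library D11, D12, O10 or O12 (limma adjusted p up to 0.25). Socs3, a feedback inhibitor of receptors that signal through gp130, was at 93.5 and 194 against 332, 313 and 247 (1.12, limma adjusted p 0.27), with all ATlo libraries above both young libraries, and did not pass. Socs4, Socs5, Socs6 and Socs7 had log2 fold changes of -0.13, -0.70, -0.19 and -0.15 with limma adjusted p of 0.75, 0.12, 0.61 and 0.82. The Cish promoter is shown as that of a called feedback inhibitor, and it has 2 matches side by side at its start. It is the RefSeq sequence (GRCm38.p6) at chr9:107296409-107296708 on the + strand, from 250 bases before to 50 after the transcription start, and capitals mark matches to TTCNNNGAA, the palindrome that STAT dimers are known to bind. Of 32851 promoters of this length, 8.30% have at least 1 match and 0.457% at least 2. The palindrome reads the same on both strands.
Cish: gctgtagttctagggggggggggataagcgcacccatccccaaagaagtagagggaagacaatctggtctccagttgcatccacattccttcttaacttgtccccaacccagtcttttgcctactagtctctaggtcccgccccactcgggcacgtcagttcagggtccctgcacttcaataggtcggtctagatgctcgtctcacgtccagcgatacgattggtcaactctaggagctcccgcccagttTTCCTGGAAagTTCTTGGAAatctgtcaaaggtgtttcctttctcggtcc

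Cytokine receptors and their feedback genes had calls in both directions. Of 40 cytokine and JAK-STAT genes tested, limma called Osmr and Il1r1 higher and Socs2 and Cish lower, 10% of the list beside 1.40% of all genes, with a list median of -0.10. There were 6 higher and 9 lower at an unadjusted p of 0.05. The edgeR test called 2 and 2, DESeq2 on the 5 libraries 2 and 7, and the authors' deposited table has 2 and 5. Il1r1, the receptor for interleukin 1, was at 823 and 539.6 in young and 2414, 2066 and 1903 in ATlo (log2 fold change 1.67, SE 0.23, limma adjusted p 0.011). Il6st, the gp130 subunit that pairs with OSMR, had a log2 fold change of -0.27 (limma adjusted p 0.47), Stat3 of 0.26 (0.38), Stat5a of 0.08 (0.86) and Stat5b of -0.13 (0.78). Csf2rb, the shared beta subunit of the receptors for interleukin 3, interleukin 5 and GM-CSF, was at 1387 and 897 against 112, 304 and 379 (-2.24, limma adjusted p 0.070) and did not pass. Outside the list, Il15 and Ebi3 fell. Il15, a cytokine for natural killer and memory T cells, was at 1079 and 1125 against 232, 281 and 298, and Ebi3, a subunit of interleukins 27 and 35, at 643 and 887 against 62.9, 92.1 and 127. Il12rb2, a subunit of the interleukin 12 receptor, was at 1310.0 and 1192 against 517, 378 and 382. The call of Il1r1 was lost without the library D12 (limma adjusted p 0.065). Il15, Ebi3 and Il12rb2 were not called without the library D11 or D12 (limma adjusted p up to 0.092, 0.14 and 0.20).

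**Figure D3:**
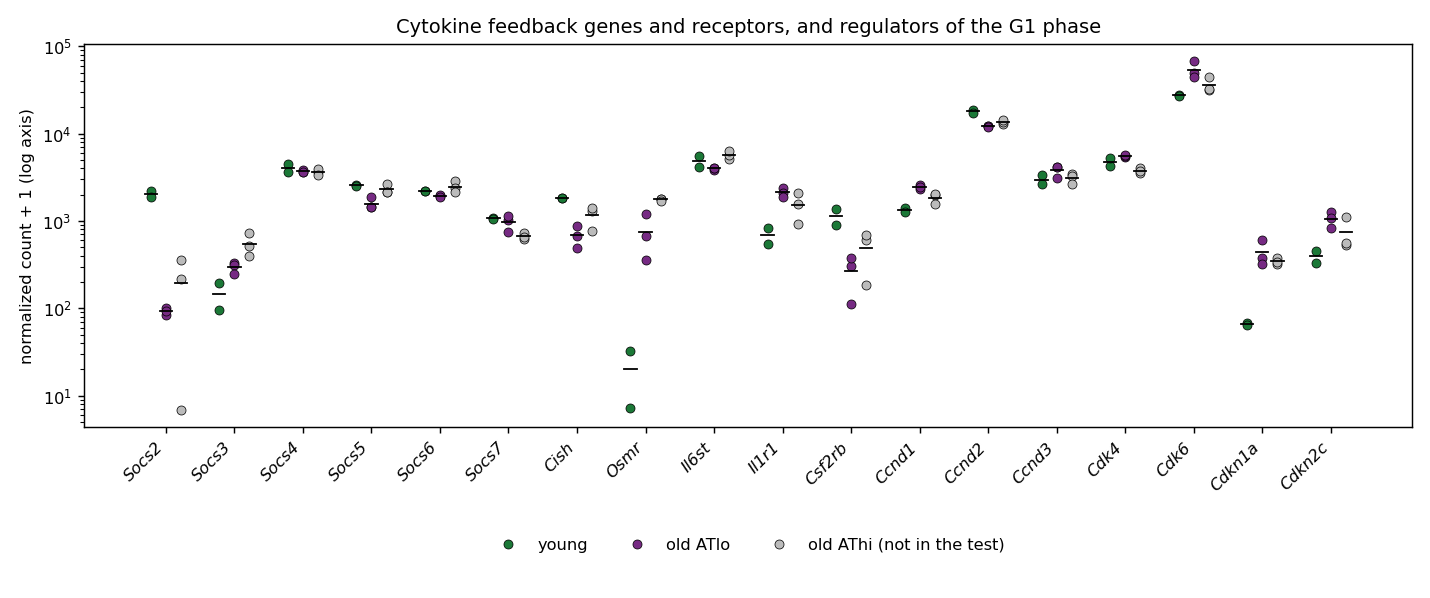
Points are the normalized counts (plus 1, log axis) of single libraries for SOCS family genes and cytokine receptors, at the left, and G1 regulators, at the right, with a bar at each group's mean. Socs2 has the widest gap between the green young and purple ATlo libraries among the falls, and Osmr among the rises. Grey AThi libraries took no part in the test.

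The other large falls came from several functions. Rgs7bp, which anchors regulators of G protein signalling at the membrane, was at 1621 and 1256 in young and 58.1, 7.94 and 35.8 in ATlo (log2 fold change -5.73, SE 0.76, limma adjusted p 0.0093). Plxdc2, a transmembrane protein with a plexin domain, was at 5708 and 7709 against 1000.2, 529.5 and 872 (log2 fold change -3.10, SE 0.27, limma adjusted p 0.0019). Hif3a, an inhibitory member of the hypoxia-inducible factors, was at 2133 and 2577 against 522, 410.4 and 435 (log2 fold change -2.37, SE 0.22). Gria3, a glutamate receptor subunit, was at 2701 and 2788 against 779, 845 and 605, and Lhcgr, the receptor for luteinizing hormone, at 5417 and 5635 against 1896, 2217 and 1760.1. Plxdc2, Hif3a, Gria3 and Lhcgr were called without each library in turn.

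Further falls were less steady. Mmp16, a membrane metalloproteinase, was at 503 and 510.1 against 77.0, 81.0 and 73.1, and Nrk, a kinase of the X chromosome, at 1974 and 2176 against 539.8, 507 and 337. Anxa6, a membrane-binding annexin, was at 1228 and 1215 against 165, 160.4 and 466, with O12 the highest ATlo library. Plekhg1, a guanine nucleotide exchange factor, was at 1328 and 631 against 236, 57.2 and 77.0. Myl10, a myosin light chain, was at 2631 and 857, so that the young libraries themselves differed, against 261, 307 and 371. Skint3, of a family of epithelial immunoglobulin-like proteins, was at 333 and 369.6 against 80.1, 69.1 and 49.8; related Skint genes may share its reads. Zfp831, a zinc finger protein, was at 3393 and 2154 against 918, 691 and 758, and Phldb2, a microtubule anchoring protein, at 612 and 906 against 233, 213 and 183. The calls of Rgs7bp, Mmp16 and Nrk were lost without the library D11 or D12 (limma adjusted p up to 0.17, 0.20 and 0.060). Anxa6 was not called without the library D11, D12, O10 or O11 (limma adjusted p up to 0.30). The call of Plekhg1 was lost without the library D11, D12, O11 or O12 (limma adjusted p up to 0.40). Myl10 was not called without the library D11, O10, O11 or O12 (limma adjusted p up to 0.27). The calls of Skint3 and Phldb2 were lost without any 1 of the 5 libraries (limma adjusted p up to 0.34 and 0.21). Zfp831 was not called without the library D11 (limma adjusted p 0.11).

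Genes of stem cell identity had calls in both directions. Of 44 tested, limma called 2 higher (Vldlr and Nr4a2) and 2 lower (Hlf and Ifitm1), 9.09% of the list beside 1.40% of all genes, and the list's median was -0.09. Unadjusted, 8 were higher and 8 lower at a p of 0.05. Hlf, a transcription factor that maintains HSCs, was at 43818 and 40385 in young and 30339, 28326 and 24927 in ATlo (log2 fold change -0.60, SE 0.11, limma adjusted p 0.035). Ifitm1, an interferon-induced membrane protein, was at 13694 and 13875 against 8402, 9738 and 8482. Nr4a2, an orphan nuclear receptor of the immediate early genes, was at 177 and 212 against 549, 797 and 515. It was the 1 call among 27 immediate early genes tested, beside 1.40% of all genes. Procr (-0.15, limma adjusted p 0.79), Mecom (-0.37, 0.34), Meis1 (-0.12, 0.70), Ly6a (0.00, 1.0) and Kit (0.10, 0.83) did not pass. Of 19 HOX, MEIS and PBX genes tested, 1 was called, beside 1.40% of all genes. This was Pbx3, a cofactor of HOX proteins, at 778 and 973 against 3099, 2103 and 2720.2 (log2 fold change 1.58, SE 0.21, limma adjusted p 0.010). Hoxa3 had an estimate of -2.45 with a limma adjusted p of 0.10. The calls of Hlf and Nr4a2 were lost without any 1 of the 5 libraries (limma adjusted p up to 0.31 and 0.26). Ifitm1 was not called without the library D11, D12, O10 or O12 (limma adjusted p up to 0.24). The call of Pbx3 was lost without the library D11 (limma adjusted p 0.11).

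Regulators of DNA methylation and chromatin had a median log2 fold change of -0.30 over 35 genes tested. Limma called 0 higher and 2 lower, 5.71% of the list beside 1.40% of all genes. At an unadjusted p of 0.05, 2 were higher and 8 lower, beside 2001 of all 13611 genes in either direction. The authors' deposited table has 0 higher and 4 lower. Satb1, a chromatin organiser of lymphoid development, was at 1143 and 2011 in young and 245, 154 and 432 in ATlo (log2 fold change -2.57, SE 0.43, limma adjusted p 0.024). It is in the multipotent progenitor markers too, and in the authors' deposited table its adjusted p was 0.11. In each group the library tagged 12, which also held B cell transcripts, was the highest for Satb1 (1379 in AThi, beside 304 and 200). The part of B cell transcripts in its values was not tested. Tet2, which oxidises methylcytosine and is often mutated in clonal haematopoiesis, was at 3877 and 4118 against 2437, 2305 and 2419 (log2 fold change -0.74, SE 0.14, limma adjusted p 0.039). Dnmt3a (-0.47, limma adjusted p 0.20) and Tet1 (-0.63, 0.081) did not pass. The highest estimate in the list, 5.60 for Kdm5d, is of a Y-linked gene at 0 and 1468 in young. Satb1 was not called without the library D11, D12 or O10 (limma adjusted p up to 0.19). The call of Tet2 was lost without any 1 of the 5 libraries (limma adjusted p up to 0.23).

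Mitotic genes were higher in estimate, and 4 passed. Of 49 genes of the G2 and M phase, 4 were higher and 0 lower by limma (Mki67, Cenpe, Kif11 and Nusap1), 8.16% of the list beside 1.40% of all genes. At an unadjusted p of 0.05, 31 were higher and 0 lower. The median log2 fold change was 0.58, and 48 estimates lay above 0. Mki67, the proliferation antigen Ki-67, was at 16825 and 23152 in young and 40269.6, 42789 and 47738 in ATlo (log2 fold change 1.14, SE 0.14, limma adjusted p 0.0066). The kinetochore motor gene Cenpe was at 1861 and 1988 against 3038, 3642 and 4001, and the spindle motor gene Kif11 at 5455 and 6490.2 against 9198, 10418 and 9528. Nusap1, a spindle-associated protein, was at 3515 and 4319 against 6278, 6494 and 6243. D11 had the lower young value of all 4 genes. Without D11 0 of the 49 were higher, and without the other libraries 1 to 2. The edgeR test called 2 of the 49 higher, and 14 are higher in the authors' deposited table. Kif11 is not among those 14 (DESeq2 adjusted p 0.063 in that table). Of 49 S phase genes, limma called 0 in either direction, beside 1.40% of all genes, with a median of 0.24 and a smallest adjusted p of 0.088. At an unadjusted p of 0.05, 13 of them were higher and 0 lower, edgeR called 0, DESeq2 refitted on the 5 libraries 3 higher, and the authors' deposited table has 3 higher. Mki67 was not called without the library D11 (limma adjusted p 0.053). The calls of Cenpe, Kif11 and Nusap1 were lost without any 1 of the 5 libraries (limma adjusted p up to 0.29, 0.30 and 0.34).

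Regulators of the G1 phase, in which D-type cyclins with CDK4 and CDK6 commit a cell to division, moved in both directions. Cdk6 was at 28086 and 27289 in young and 49688, 67274 and 44603 in ATlo (log2 fold change 0.94, SE 0.16, limma adjusted p 0.024). Ccnd1, cyclin D1, was higher, at 1415 and 1271 against 2575, 2299 and 2424 (0.86, SE 0.16). Ccnd2, cyclin D2, was lower, at 18639 and 17408 against 12389, 12323 and 12016 (-0.56, SE 0.10). Ccnd3 had a log2 fold change of 0.35 (limma adjusted p 0.42) and Cdk4 of 0.22 (0.51). The 3 calls were 21.4% of the 14 genes tested, beside 1.40% of all genes, and the list's median was 0.09.

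Among 21 genes of quiescence and CDK inhibition tested, limma called 2 inhibitors higher and 0 genes lower, beside 0.992% and 0.404% of all genes. Unadjusted, 5 were higher and 2 lower at a p of 0.05. Cdkn1a, the p21 inhibitor and a target of p53, was at 67.5 and 63.4 in young and 607, 379 and 323 in ATlo (log2 fold change 2.67, SE 0.42, limma adjusted p 0.020). Cdkn2c, the p18 inhibitor of CDK4 and CDK6, was at 327 and 456 against 831, 1277 and 1091. The p57 gene Cdkn1c (-0.15, limma adjusted p 0.80) and the p27 gene Cdkn1b (-0.27, 0.63) did not pass. Cdkn1a was the 1 call among 28 genes of the p53 response and DNA damage tested, beside 1.40% of all genes. In that list Mdm2 had -0.40 (limma adjusted p 0.38) and Ccng1 -0.06 (0.86). Cdk6 and Cdkn1a were not called without the library D11, D12 or O10 (limma adjusted p up to 0.20 and 0.11). The calls of Ccnd1, Ccnd2 and Cdkn2c were lost without any 1 of the 5 libraries (limma adjusted p up to 0.19, 0.30 and 0.30).

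The gate was set on an autophagy reporter, and autophagy genes had no call by limma. Of 50 genes of the machinery tested, 0 were higher and 0 lower, which is near the 1.40% called of all genes, with a median log2 fold change of -0.07 and a smallest adjusted p of 0.062, that of the receptor gene Tax1bp1. At an unadjusted p of 0.05 limma had 1 higher and 5 lower, beside 2001 of all 13611 genes in either direction. The edgeR test called 0, DESeq2 refitted on the 5 libraries 1 higher and 4 lower, and the authors' deposited table has 1 and 3. Map1lc3b, which encodes the LC3B protein, was at 5749 and 5584 in young and 6773, 6354 and 5545 in ATlo (log2 fold change 0.13, SE 0.13, limma adjusted p 0.71). Gabarap, Gabarapl1 and Gabarapl2 had log2 fold changes of 0.10, 0.18 and -0.08, and the receptor gene Sqstm1 of -0.13, with limma adjusted p of 0.84, 0.72, 0.93 and 0.82. Map1lc3a had a base mean of 79.1, under the minimum. Foxo3, a transcription factor that drives autophagy genes in HSCs, was at 13712 and 11714 against 9578, 10506 and 7514 (-0.48, limma adjusted p 0.20), and Txnip, a brake on glucose uptake, at 24109 and 32506 against 23907, 24999 and 15823 (-0.40, 0.40). Of 50 lysosome genes tested limma called 0, beside 1.40% of all genes, with a median of 0.12. At an unadjusted p of 0.05 limma had 7 higher and 4 lower. There were 0 calls by edgeR, 2 higher by DESeq2 on the 5 libraries and 1 higher in the authors' deposited table. A p that misses the threshold does not show that the levels were alike.

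Energy metabolism gave 1 call by limma, beside 1.40% of all genes. Of 73 genes of oxidative phosphorylation tested, 0 passed in either direction, 67 estimates lay above 0, and the median was 0.21 beside 0.02 over all genes. In 34 of the 73 every ATlo library lay above both young libraries, beside 17.7% of all genes, and 11 were higher and 0 lower at an unadjusted p of 0.05. The edgeR test called 0, DESeq2 on the 5 libraries 1 higher, and the authors' deposited table has 2 higher. Ldha, the lactate dehydrogenase subunit of glycolysis, was the 1 call among 26 glycolysis genes tested, at 14456 and 15669 in young and 23686, 27936 and 23999.6 in ATlo (log2 fold change 0.74, SE 0.11, limma adjusted p 0.018). The glucose transporter gene Slc2a1 had -0.04 (limma adjusted p 0.95). Of 20 amino acid transporters tested, Slc43a2, a carrier of large neutral amino acids, was lower, at 1626 and 1096 against 435, 553 and 421. Ern1, the IRE1 sensor of the unfolded protein response, was the 1 call among 29 genes of that response and of heat shock tested, at 4299 and 2972 against 1256, 1686 and 1587. These single calls in lists stand beside 1.40% of all genes. Ldha was not called without the library D11 or D12 (limma adjusted p up to 0.17). The call of Slc43a2 was lost without the library D11, D12, O10 or O12 (limma adjusted p up to 0.29). Ern1 was not called without the library D11 or O10 (limma adjusted p up to 0.25).

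Inflammatory lists and clustered protocadherins, which are neuronal adhesion molecules, had no calls by limma, which for lists of this size is near the 1.40% called of all genes. There were 0 of 45 interferon response genes (median -0.04), 0 of 23 TNF and NF-kappaB genes (median -0.24), 0 of 25 MHC and antigen presentation genes (median 0.23) and 0 of 16 clustered protocadherins (median -0.00). At an unadjusted p of 0.05 limma had 5, 1, 5 and 2 members of these lists higher and 3, 3, 0 and 1 lower. The edgeR test called 0 in each, and DESeq2 on the 5 libraries 3, 1, 1 and 2 higher and 0, 1, 0 and 0 lower. The counts of the authors' deposited table are 3, 1, 1 and 1 higher and 0, 1, 0 and 0 lower.

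**Figure D4:**
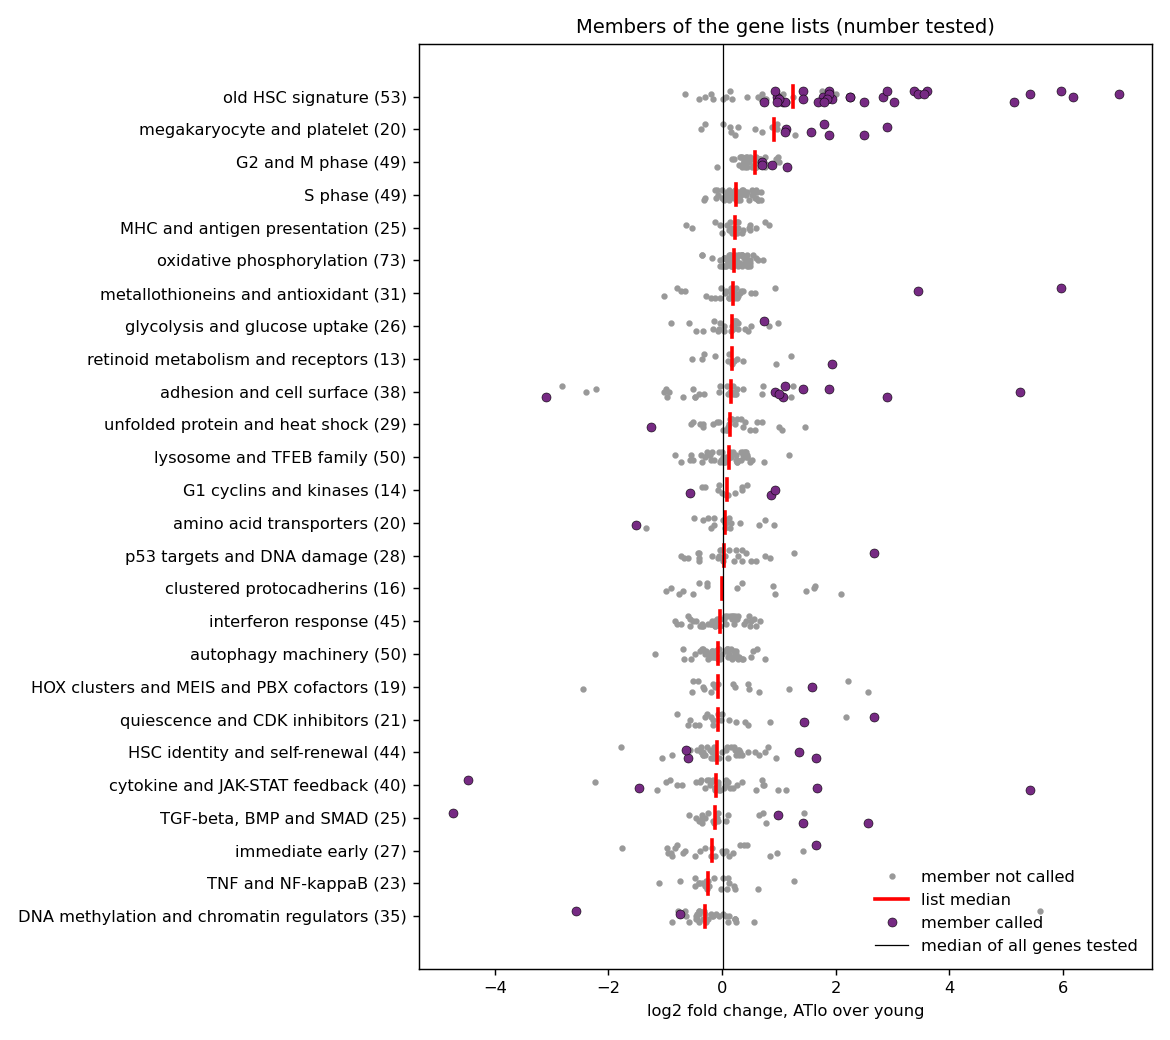
Each point is the log2 fold change of ATlo over young for 1 member of a gene list. Rows are the 26 lists with the number of members tested, ordered by their median (red bar), with called members in purple and the median of all genes tested as a vertical line. The old HSC signature has the highest median (1.26) and the chromatin regulators the lowest (-0.30); the outlying grey point of the latter is Y-linked Kdm5d.

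Among 8 lists of markers of other cell types, 3 had a call by limma, beside 1.40% of all genes called. The granulocyte list had 1 of 6 higher (Prtn3, a protease of myeloid granules, at 2039 and 1684 against 3890.0, 4024 and 3105). Of these 6, 3 had an estimate above 0 and 3 below, with a median log2 fold change of 0.08. Summed levels of the list were 3821 and 4357 in young and 6861, 6971 and 8147 in ATlo. The stromal and endothelial list had 1 of 5 lower (Emcn, a mucin of endothelium and HSCs, at 2339 and 1387 against 495, 736 and 498), with sums of 4878 and 3261 against 2870.2, 4018 and 2818. Multipotent progenitor markers had Mki67 higher and Satb1 lower among 8. Their median log2 fold change was -0.79, with 2 estimates above 0 and 6 below. Sums of the list were 34694 and 41237 against 51312, 56414 and 62049. Mki67 alone held 16825 and 23152 of these in young and 40269.6, 42789 and 47738 in ATlo. Cd48, a surface marker that HSC sorts usually exclude, was at 51.9 and 149 against 0, 82.6 and 209.9, and Flt3, a progenitor receptor, at 1150.0 and 862 against 541, 516 and 331 (limma adjusted p 0.12). The T and NK cell, erythroid, monocyte and mast cell lists had 0 calls by limma or edgeR (1, 3, 0 and 1 members at an unadjusted p of 0.05, and 1, 1, 0 and 1 by DESeq2 on the 5 libraries). Their sums were 1258 and 1530.2 in young and 1471, 1468 and 1879 in ATlo for T and NK cells, and 29600.4 and 34265 against 39241, 41768 and 35432 for erythroid genes. For monocyte genes they were 9972 and 10886 against 9135, 9147 and 9779.9, and for mast cell genes 8364 and 8615 against 8037, 11886 and 11651. Among members tested, the T and NK cell, erythroid, monocyte and mast cell lists had median log2 fold changes of 0.22, -0.82, -0.67 and 1.07. Of 6 erythroid genes tested, 2 had an estimate above 0 and 4 below. Sums take in members under the base mean minimum as well. The part of sex, of B cell transcripts and of these marker levels in the results was not tested beyond the counts without single libraries. Fewer cells of a type and less RNA per cell cannot be told apart in bulk RNA. The call of Prtn3 was lost without the library D11, D12, O10 or O11 (limma adjusted p up to 0.19). Emcn was not called without the library D11, O10 or O12 (limma adjusted p up to 0.29).

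The AThi libraries come from the same 3 old mice and were set against the same 2 young libraries in the deposited data, so the values below are given side by side with no test. Mki67 was at 14139.8, 14501 and 20394 in AThi, beside 40269.6, 42789 and 47738 in ATlo and 16825 and 23152 in young. Kif11 was at 2213, 2561 and 4161 in AThi, beside 9198, 10418 and 9528 in ATlo. Clca3a1 was at 12105, 11914 and 12119 and Aldh1a1 at 20630.0, 21609.5 and 20187 in AThi, values that overlap those of ATlo. Osmr was at 1805, 1790.3 and 1696 in AThi, above its ATlo values, and Plxdc2 at 2705, 1949 and 2294, between those of ATlo and young. Rgs7bp was at 27.8, 33.0 and 29.3 in AThi, within the range of ATlo.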

How the data were processed

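RNA from sorted HSCs was sequenced as paired ends of 50 bases after low-input library preparation, per the labels' protocols. The submitters' processing notes name STAR, featureCounts, DESeq2, FastQC and MultiQC with the build GRCm38. They give neither the annotation nor the strand setting of the counting. The authors deposited a table of 19909 genes with a normalized signal per library (read counts divided by 1 factor per library), a base mean, a log2 fold change and its error, and a p-value with its adjusted value. Per the file headers its columns carry a group and a tag. These tags differ from the labels' replicate numbers, so columns were matched to groups only. Divided by what 1 read is worth in its library, 100% of values came out whole to within 0.01 of a read. These recovered reads give the depths, and they speak to counting error only, as reads carry no molecular identifiers. Genes for ribosomal RNA took between 27.1% and 34.7% of them in the 5 libraries.

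The test was limma 3.58.1 (eBayes with a trend, R 4.3.3) on log2(normalized count + 1) of the 5 libraries, two-sided, with Benjamini-Hochberg adjustment over 13611 genes. The pseudocount by itself shrinks the change of low genes, yet limma values lay on either side of count-based ones. Gabra4 had a log2 fold change of 6.06 by limma and 5.12 in the authors' deposited table, and Kcnb2 6.99 and 7.84. The count tests edgeR 4.0.16 (quasi-likelihood, run on 5 and on 8 libraries) and DESeq2 1.42.0 on the recovered reads were alternatives, with other pseudocounts, filters, scalings, thinned reads, array weights and left-out libraries. The removal of both libraries tagged 12 was added after seeing the data. The limma and edgeR steps were tested on simulated data. Tables were made in Python 3.11.15 with pandas 2.3.3 and numpy 2.4.6, intervals with scipy 1.17.1 and figures with matplotlib 3.10.9. Positions are from GENCODE M21 (19584 genes matched), and promoter sequences from RefSeq (GRCm38.p6).

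The comparison, the 26 gene lists and the 8 marker lists were chosen with earlier results of these data known. Genes named by rule are called genes with separate groups whose symbol is not that of a predicted gene, clone, mitochondrial gene or pseudogene, nor a sex-specific gene: the 10 largest rises and falls, the same among genes with a mean of 200 or more in both groups, the 10 smallest adjusted p, up to 3 called members per list, and 14 genes of the gate and of HSC ageing whatever their p. Per the labels, the libraries compared came from 3 old and 2 young mice. Of the called genes, 75 overlap another gene of the table.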

Additional observations from a re-analysis of the deposited data

How the results depend on the processing

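Of the 72 genes named by rule, none that limma called changed sign under any alternative it could be tested in. The sign changed in 4 uncalled ones. Leaving out 1 library gave log2 fold changes of -0.12 to 0.47 for Gabarapl1, -0.34 to 0.18 for Gabarapl2 (also 0.0436 without O11) and -0.27 to 0.18 for Slc2a1 (also 0.0168 without O12). Per-million scaling gave 0.00584 for Slc2a1. Without both libraries tagged 12 the values were -0.0792 for Gabarapl1, 0.22 for Gabarapl2, 0.24 for Slc2a1 and 0.0201 for Txnip. The count of 135 higher and 55 lower genes stayed within 1.5 times under other pseudocounts, other base mean minimums above 0, TMM, median or per-million scaling, thinned reads, array weights, edgeR on 5 or 8 libraries and all 8 libraries. It moved with no base mean minimum (59 higher, 14 lower), with DESeq2 on the recovered reads (362 and 331) and in the authors' deposited DESeq2 contrast (389 and 298, over 13584 genes with an adjusted p); the cause was not tested. Leaving out 1 library, with fewer samples, gave 47 to 92 higher and 7 to 40 lower genes, the lowest without O10 and D11. Without both libraries tagged 12 there were 64 and 11; young was then D11 alone, whose spread is assumed to be that of ATlo. Higher genes were 71.1% of the calls, a description only, since the base mean minimum is taken over more old than young libraries. With the mouse tag of the old libraries as a replicate block over all 8 libraries 162 were higher and 74 lower, beside 161 and 75 without the block. The pairing joins old fractions only, since young and old mice differ. A count of similar size need not hold the same genes. Of the 190 limma calls, edgeR on the 5 libraries kept 154. Among the 72 genes named by rule 11 lost their call by edgeR. They were Gabra4, Dsp, Clu, Rorb, Plekhg1, Anxa6, Adgrg2, Cdkn2c, Ccnd1, Nr4a2 and Cenpe. With 2 young libraries, levels of a few reads set a fold loosely, as for Kcnb2.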
